A study of Mus musculus with 24 samples.

Results

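The vacuolar H+-ATPase (V-ATPase) was described here through 10 of its subunit genes, taken by gene symbol: Atp6v1a, Atp6v1b2, Atp6v1c1, Atp6v1d, Atp6v1e1 and Atp6v1h of the cytosolic V1 sector, and Atp6v0a1, Atp6v0c, Atp6v0d1 and Atp6v0d2 of the membrane V0 sector. These 10 genes were chosen with earlier results of these data known. Counts among them, set beside a share of all features, therefore describe these genes and do not test the pump. Of the 10 genes, 9 were each measured by 1 feature among 22206 gene features on the array. Atp6v0c, which encodes the proteolipid of the rotating c-ring, matched no feature by symbol, gene number or accession and was not analysed here. RNA was taken from RAW 264.7 cells, a virus-transformed mouse macrophage line, and measured on 24 Clariom S arrays, with 3 arrays in each of 8 groups. Proanthocyanidins (PAC) are plant polyphenols built from flavan-3-ol units, and the PAC used here came from grape as fractions of low, medium or high mean degree of polymerization. Cells received no PAC or 1 of the 3 fractions at 15 µg/mL, the same mass for each, and after 30 min were left unstimulated or given 500 ng/mL of LPS (lipopolysaccharide), a bacterial cell wall component, with RNA collected after 6 h. The groups were control, low PAC, medium PAC and high PAC, called resting cells below, then LPS, and each of the 3 fractions with LPS (low PAC + LPS and so on). The sources used here do not say whether the 3 arrays of a group came from separate cultures, so each p-value reflects the spread among these arrays alone, which may be technical.

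The V-ATPase is a rotary pump that hydrolyses ATP in its V1 sector and drives protons across a membrane through its V0 sector. In macrophages it acidifies endosomes, phagosomes and lysosomes, and on the lysosome it also takes part in nutrient sensing by mTORC1. Several subunits exist as isoforms from separate genes, and the d2 isoform of V0, encoded by Atp6v0d2, is known from osteoclasts and macrophages, whereas the d1 isoform is found in most cells. Transcription factors of the MiT/TFE family (Tfeb, Tfe3, Mitf and Tfec in the mouse) bind an E-box motif in the promoters of many lysosomal genes.

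Promoter windows of 300 bases, from 250 before to 50 after the annotated start, were available for 6 of the 10 listed genes in RefSeq sequence of build GRCm38.p6. None was available for Atp6v0d2, Atp6v1b2, Atp6v1c1 and Atp6v1h. Windows are shown for 3 genes below because all 3 were higher with medium PAC while only 2 of them held the motif searched. The motif stands in capitals. The motifs were CACGTG, which is its own reverse complement, and its longer form TCACGTG, searched on both strands and overlapping the first.
Atp6v1a, chr16:44139210-44139509, minus strand: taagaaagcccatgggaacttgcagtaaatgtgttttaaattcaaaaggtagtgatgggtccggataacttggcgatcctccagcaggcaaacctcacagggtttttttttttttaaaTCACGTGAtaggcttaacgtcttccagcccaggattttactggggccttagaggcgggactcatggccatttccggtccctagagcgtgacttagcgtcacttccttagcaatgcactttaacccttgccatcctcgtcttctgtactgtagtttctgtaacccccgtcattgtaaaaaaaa
Atp6v0d1, chr8:105566015-105566314, minus strand: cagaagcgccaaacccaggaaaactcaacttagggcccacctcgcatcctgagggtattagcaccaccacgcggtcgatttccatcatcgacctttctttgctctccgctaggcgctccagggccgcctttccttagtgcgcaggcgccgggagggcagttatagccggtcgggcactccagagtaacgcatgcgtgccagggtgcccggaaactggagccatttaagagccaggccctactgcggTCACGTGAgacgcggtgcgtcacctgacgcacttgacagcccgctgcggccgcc
Atp6v1d, chr12:78861589-78861888, minus strand: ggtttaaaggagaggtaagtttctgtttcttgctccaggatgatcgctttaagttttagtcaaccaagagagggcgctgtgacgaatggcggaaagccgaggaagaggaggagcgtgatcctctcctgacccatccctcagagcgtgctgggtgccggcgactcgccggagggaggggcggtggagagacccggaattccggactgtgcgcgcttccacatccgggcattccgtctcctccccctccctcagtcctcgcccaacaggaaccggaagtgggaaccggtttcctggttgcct
In the Atp6v1a window the match began 132 bases before the start, and in the Atp6v0d1 window it began 4 bases before the start and ran across it. In both windows the longer form was read on either strand over the same 8 bases, TCACGTGA. The windows of Atp6v1d, Atp6v0a1, Atp6v1e1 and Atp6v0c held neither form. The 6 genes had 8 windows between them, and 2 of the 8 held a match. Among 32851 mouse promoter windows of the same length, 7.15% held CACGTG and 3.77% held the longer form. Of the 16 windows found for 13 other V-ATPase subunits, 2 held it, those of Atp6v0b and Atp6v0e. A match here is a description of the letters in the window.

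All values are on the log2 scale of the deposited table. Since that scale may have been stretched by an unknown transformation, differences are given in its units and not as folds. The level of a gene is not compared with that of another. A level of 4.73, the 95th percentile of 1414 odorant and vomeronasal receptor features, served as the silent level, and all 9 measured subunits lay above it. Replicate arrays correlated at 0.989 to 0.994. Of 11 measured macrophage markers, 10 lay above the silent level in every group, Mertk being the exception. By contrast, 0 of 4 epithelial markers, 1 of 4 fibroblast markers and 1 of 6 lymphocyte markers did. In 3 resting arrays the inflammatory gene Il1b was raised, at 9.39 in medium PAC replicate 3 and at 11.92 and 9.62 in replicates 2 and 3 of high PAC, against 4.86 to 6.40 in the other 9. Over the 9 subunits, the median deviation from the group mean on these 3 arrays was -0.02, -0.02 and -0.04. Single subunits deviated by -0.10 to 0.09, -0.20 to 0.22 and -0.12 to 0.21. These arrays are part of the means they are set against, and 2 of them are in high PAC. The small medians therefore do not show that the arrays left the subunits unchanged. "Higher" and "lower" below mean an adjusted p under 0.05 in limma, a linear model fitted to all features, with Benjamini-Hochberg adjustment over the 22206 features of a comparison.

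In resting cells, medium PAC raised 8 of the 9 measured subunits and lowered none, where 5.03% of all features were higher. Their median difference from control was 1.59, against -0.0004 over all features. High PAC raised the same 8 subunits, with a median of 0.83 and a background of 3.21% of features higher. With low PAC none passed the test, 0.0315% of all features being higher. Only Atp6v0d2 had an unadjusted p under 0.05, a threshold at which the share of all features was not counted. The 8 subunits covered both sectors, and the exception in each case was Atp6v1e1, a part of the peripheral stalk. Among features above the silent level, where all 9 lay, 8.36% were higher with medium PAC and 5.32% with high PAC. Of 15 other measured V-ATPase subunits, described further below, 3 were higher with medium PAC and 1 with high PAC.

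**Figure D1:**
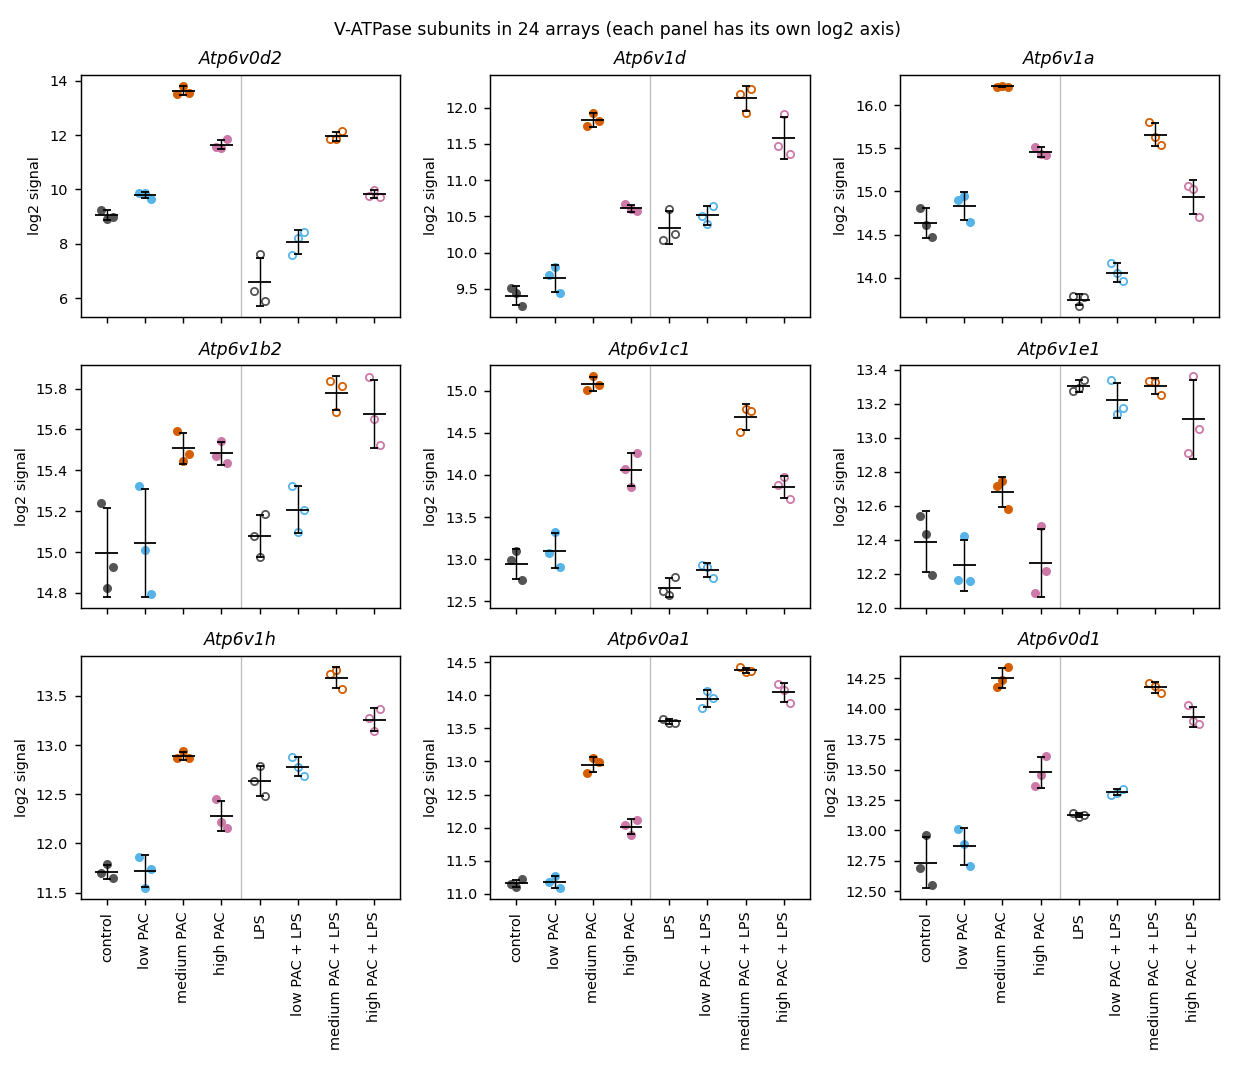
Log2 signal (vertical axis, scaled per panel) of the 9 measured V-ATPase subunits in the 8 groups (horizontal axis). Each point is 1 array, filled for resting cells and open for cells with LPS, with the mean of 3 arrays as a line and the SD as bars. The medium PAC group has the highest mean of the 4 resting groups in all 9 panels, and Atp6v0d2 runs from 6.59 with LPS to 13.63 with medium PAC.

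Atp6v0d2 encodes the d2 isoform of the V0 subunit that joins the rotor stalk to the c-ring. It read 9.25, 8.93 and 8.98 in the control arrays, 9.85, 9.86 and 9.65 with low PAC, 13.52, 13.82 and 13.56 with medium PAC, and 11.57, 11.52 and 11.86 with high PAC. With LPS it read 6.25, 7.60 and 5.91, with low PAC + LPS 7.57, 8.21 and 8.42, with medium PAC + LPS 11.86, 11.85 and 12.13, and with high PAC + LPS 9.75, 9.99 and 9.71. All medium PAC arrays stood above all high PAC arrays, which stood above all control arrays, with and without LPS, and the second LPS array stood above its 2 replicates. At rest Atp6v0d2 was higher than control by 4.58 ± 0.29 (SE, n = 3 per group, adjusted p = 6.7e-10) with medium PAC and by 2.60 ± 0.29 (adjusted p = 5.5e-06) with high PAC. This rise with medium PAC was rank 4 among the 22206 features, and the rise with high PAC was rank 19. Low PAC gave a difference of 0.74 ± 0.29 (95% interval 0.12 to 1.35) that did not pass the adjustment (adjusted p = 0.92), although the 3 low PAC arrays lay above the 3 controls. Such a separation upward was seen in 6.56% of all features in that comparison. In bulk RNA, more cells carrying a transcript and more transcript per cell cannot be told apart.

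The d1 isoform of the same V0 subunit, Atp6v0d1, read 12.69, 12.97 and 12.55 in control arrays and 14.18, 14.23 and 14.34 with medium PAC. Its difference from control was 1.52 ± 0.12 (SE, adjusted p = 1.3e-08) with medium PAC and 0.74 ± 0.12 (adjusted p = 0.00035) with high PAC. Both isoforms therefore rose with the medium and high fractions and their medium PAC arrays did not overlap the controls. Atp6v0a1, the a1 isoform of the V0 subunit that forms the proton path beside the c-ring, read 11.15, 11.10 and 11.22 in control arrays, 12.82, 13.05 and 12.99 with medium PAC, and 12.04, 11.89 and 12.11 with high PAC. Its differences were 1.80 ± 0.11 (adjusted p = 6.1e-10) and 0.86 ± 0.11 (adjusted p = 4.1e-05), while low PAC gave 0.02 with overlapping arrays.

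In the V1 sector, Atp6v1d encodes a part of the central rotor stalk. It read 9.51, 9.44 and 9.26 in control arrays, 9.69, 9.81 and 9.44 with low PAC, 11.74, 11.93 and 11.82 with medium PAC, and 10.67, 10.61 and 10.57 with high PAC. The control and low PAC arrays overlapped, and the medium and high PAC arrays stood apart from both and from each other. The rise was 2.42 ± 0.16 (SE, adjusted p = 7.5e-10) with medium PAC, rank 97 of all features, and 1.21 ± 0.16 (adjusted p = 3.1e-05) with high PAC. Atp6v1c1 encodes the C subunit, which sits between the V1 and V0 sectors and leaves when the pump is taken apart. It read 12.99, 13.09 and 12.75 in control arrays and 15.00, 15.17 and 15.06 with medium PAC. Its rise was 2.13 ± 0.14 (adjusted p = 1e-09) with medium PAC and 1.12 ± 0.14 (adjusted p = 2.2e-05) with high PAC.

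The A and B subunits form the head of V1, where Atp6v1a encodes the catalytic A subunit. It read 14.81, 14.61 and 14.47 in control arrays and 16.21, 16.23 and 16.21 with medium PAC, the tightest 3 arrays of any subunit and group (SD 0.0079). Its rise was 1.59 ± 0.13 (SE, adjusted p = 1.8e-08) with medium PAC and 0.83 ± 0.13 (adjusted p = 0.00023) with high PAC. The B2 subunit, which binds nucleotide without being the main catalytic site, moved less. Atp6v1b2 read 15.24, 14.82 and 14.93 in control arrays, 15.59, 15.45 and 15.48 with medium PAC, and 15.47, 15.54 and 15.44 with high PAC. These groups did not overlap with the controls, and the rises of 0.51 ± 0.14 (adjusted p = 0.022) and 0.49 ± 0.14 (adjusted p = 0.043) were the smallest that passed the test among those of PAC against control at rest. The first lost its call when control replicate 2 or 3 or medium PAC replicate 1 or 3 was left out, and the second in 15 of the 24 fits that each left out 1 array.

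Atp6v1h encodes the regulatory H subunit, which holds back ATP hydrolysis in free V1. It read 11.70, 11.79 and 11.64 in control arrays, 12.87, 12.94 and 12.87 with medium PAC, and 12.46, 12.22 and 12.16 with high PAC. Its rise was 1.18 ± 0.12 (SE, adjusted p = 7e-07) with medium PAC and 0.57 ± 0.12 (adjusted p = 0.0056) with high PAC. Atp6v1e1, of the peripheral stalk, read 12.54, 12.43 and 12.19 in control arrays and 12.72, 12.74 and 12.58 with medium PAC. The medium PAC arrays lay just above the controls, and the difference of 0.29 (95% interval 0.0044 to 0.58) did not pass the adjustment (adjusted p = 0.22). With high PAC its difference was -0.13 (95% interval -0.42 to 0.16).

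**Figure D2:**
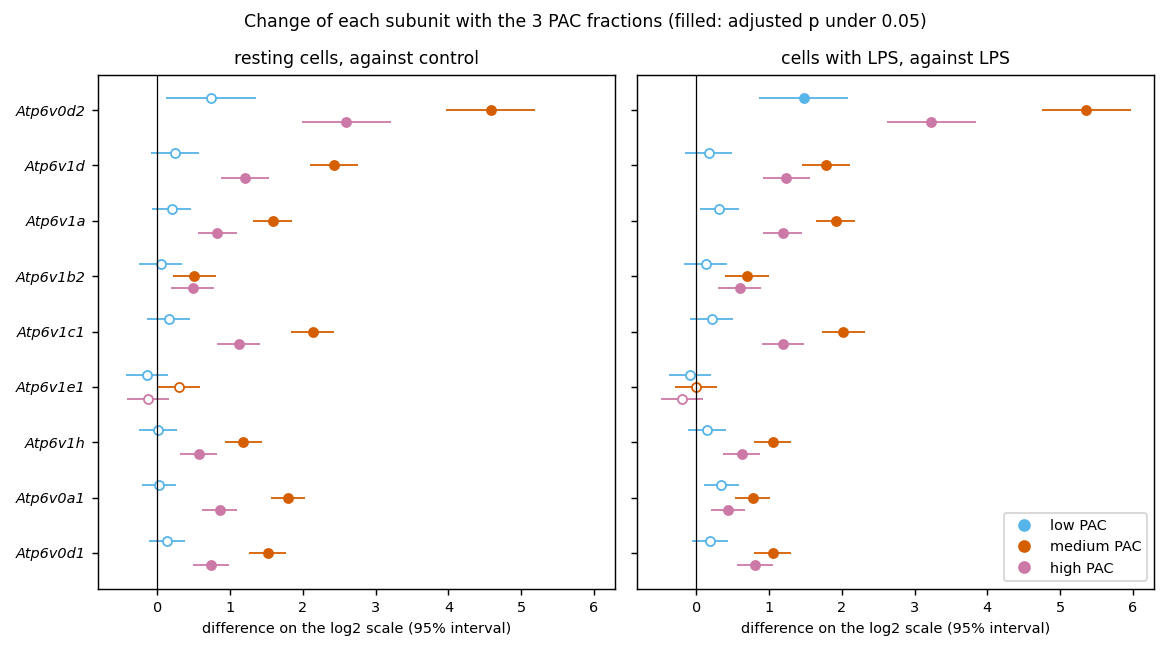
Difference of each subunit from control in resting cells (left) and from LPS in cells with LPS (right), on the log2 scale, for low, medium and high PAC. Points are limma estimates with 95% intervals, filled where the adjusted p was under 0.05. Medium PAC lies farthest to the right for all 9 subunits in both panels, and the 6 estimates of Atp6v1e1, all unfilled, lie between -0.20 and 0.29.

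In cells with LPS the comparison was repeated against LPS alone. Medium PAC + LPS raised the same 8 subunits, against 7.17% of all features, with a median difference of 1.05. High PAC + LPS raised them as well, against 4.34%, with a median of 0.81. Among features above the silent level, 11.9% were higher with medium PAC + LPS and 6.53% with high PAC + LPS. Atp6v0d2 was higher by 5.36 ± 0.29 (SE, adjusted p = 3.9e-11) with medium PAC + LPS, rank 5 of all features, and by 3.23 ± 0.29 (adjusted p = 2.6e-07) with high PAC + LPS, rank 7. Atp6v1c1 read 12.62, 12.57 and 12.79 with LPS and 14.51, 14.78 and 14.76 with medium PAC + LPS, a rise of 2.02 ± 0.14 (adjusted p = 1.3e-09). Atp6v1a read 13.78, 13.67 and 13.78 with LPS and 15.80, 15.63 and 15.54 with medium PAC + LPS, a rise of 1.92 ± 0.13 (adjusted p = 7.1e-10). In each of these genes every medium PAC + LPS array lay above every LPS array. The rises of Atp6v1d, Atp6v1h, Atp6v0d1, Atp6v0a1 and Atp6v1b2 with medium PAC + LPS ran from 1.78 for Atp6v1d to 0.70 for Atp6v1b2. Atp6v1e1 gave -0.0002 (95% interval -0.29 to 0.29) with medium PAC + LPS and -0.20 with high PAC + LPS. Of the high PAC + LPS calls, that of Atp6v0a1 (0.44, adjusted p = 0.016) was lost without LPS replicate 2 or 3 or high PAC + LPS replicate 1 or 2, and that of Atp6v1b2 (0.60, adjusted p = 0.0087) without high PAC + LPS replicate 1.

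Low PAC + LPS raised 1 of the 9 subunits, Atp6v0d2, where 0.122% of all features were higher. Its difference from LPS was 1.48 ± 0.29 (SE, adjusted p = 0.047). The arrays of the 2 groups overlapped, since LPS replicate 2 at 7.60 lay above low PAC + LPS replicate 1 at 7.57. The call was lost in 22 of the 24 fits that left out 1 array, and kept without LPS replicate 2, where the difference was 1.98 (adjusted p = 0.00027), and without low PAC + LPS replicate 1. The other 8 subunits differed by -0.09 to 0.34 with low PAC + LPS, and none of them passed the test. At an unadjusted p under 0.05 the count was 3 of the 9, with Atp6v1a (0.32, 95% interval 0.049 to 0.58) and Atp6v0a1 (0.34, 95% interval 0.11 to 0.58) beside Atp6v0d2. The share of all features at that unadjusted threshold was not counted. All low PAC + LPS arrays lay above all LPS arrays in 3 subunits, Atp6v1a, Atp6v0a1 and Atp6v0d1, and in 6.56% of all features.

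The 3 fractions, given at the same mass and time, were compared directly, in 6 pairs. At the same mass, longer polymers are fewer molecules, so polymer size and molar dose cannot be told apart here. At rest, medium PAC stood above low PAC in 8 subunits (4.01% of all features higher), above high PAC in 7 (1.47%), and high PAC stood above low PAC in 7 (2.1%). For Atp6v0d2 the differences were 3.85, 1.98 and 1.86 in that order, with adjusted p values over all features and the 6 pairs of 2.4e-08, 0.00012 and 0.00025. For Atp6v1d they were 2.18, 1.22 and 0.97. Atp6v1b2 was alone among the 8 in showing no difference that could be resolved between medium and high PAC (0.02, 95% interval -0.27 to 0.32). Its difference between medium and low PAC (0.46, adjusted p = 0.046) was 0.056 after adjustment over the 6 pairs and was lost in 19 of 24 fits without 1 array. Seen as a share of the medium PAC rise over control, the high PAC rise was 47.7% to 56.7% in 7 subunits and 95.2% in Atp6v1b2, all on the log2 scale and against the same controls.

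The 3 resting arrays with raised Il1b include 2 of the 3 high PAC arrays. Without all 3 of them, medium PAC was above control in 7 subunits and high PAC in 6, and medium PAC was above high PAC in 2, Atp6v1c1 (1.01, adjusted p = 0.048) and Atp6v0a1 (0.90, adjusted p = 0.036). That fit kept a single high PAC array, whose spread was taken to be that of the other groups. The share of all features called in that fit is not given here. Whether the fall in calls was particular to the subunits therefore cannot be told. The difference of Atp6v0d2 between medium and high PAC was then 2.10 (adjusted p = 0.063), beside 1.98 with all arrays.

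With LPS, medium PAC stood above low PAC in 8 subunits (6.4% of all features higher), above high PAC in 5 (2.96%), and high PAC above low PAC in 6 (3.14%). The 5 subunits were Atp6v0d2 (2.13), Atp6v1c1 (0.83), Atp6v1a (0.73), Atp6v1d (0.55) and Atp6v1h (0.43). The calls of Atp6v1d (adjusted p = 0.046) and Atp6v1h (adjusted p = 0.048) were lost in 18 and 20 of the 24 fits without 1 array. Atp6v0d1 and Atp6v0a1 gave 0.24 (95% interval -0.0091 to 0.49) and 0.34 (0.099 to 0.58) in this pair and did not pass the test. Atp6v0a1 also differed by only 0.09 (95% interval -0.14 to 0.33) between high PAC + LPS and low PAC + LPS. In 9 of 9 subunits medium PAC gave the highest mean of the 4 resting groups. In 8 of 9 medium PAC + LPS gave the highest mean of the 4 groups with LPS. The exception was Atp6v1e1, at 13.3032 with medium PAC + LPS and 13.3034 with LPS. In Atp6v1b2 the medium and high PAC arrays overlapped in both states. The share of all features with the same order was not counted.

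LPS itself moved single subunits in opposite directions. Against control, LPS raised 5 of the 9 subunits and lowered 2, where 13.5% of all features were higher and 20.3% lower. Among the 12744 features above the silent level, where all 9 lay, 20.8% were higher and 34.6% lower. The count of 2 lowered therefore did not exceed that background. Atp6v0a1 rose most, from 11.15, 11.10 and 11.22 in control arrays to 13.65, 13.58 and 13.59 with LPS, a difference of 2.45 ± 0.11 (SE, adjusted p = 3.1e-13). Atp6v1d rose by 0.94 ± 0.16 (adjusted p = 5e-05), Atp6v1h by 0.93 ± 0.12 (adjusted p = 2.9e-06) and Atp6v1e1 by 0.92 ± 0.14 (adjusted p = 1.5e-05). Atp6v1e1 read 13.28, 13.29 and 13.34 with LPS, above all of its control arrays, so the subunit that passed the test with no PAC fraction did pass it with LPS. Atp6v0d1 rose by 0.39 ± 0.12 (adjusted p = 0.014), a call lost without control replicate 3. Atp6v0d2 fell by 2.46 ± 0.29 (adjusted p = 6.5e-07) and Atp6v1a fell by 0.89 ± 0.13 (adjusted p = 8.5e-06). The 2 isoforms of the d subunit thus went opposite ways with LPS, while both rose with medium and high PAC. Atp6v1b2 (0.08) and Atp6v1c1 (-0.28) did not pass the test.

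**Figure D3:**
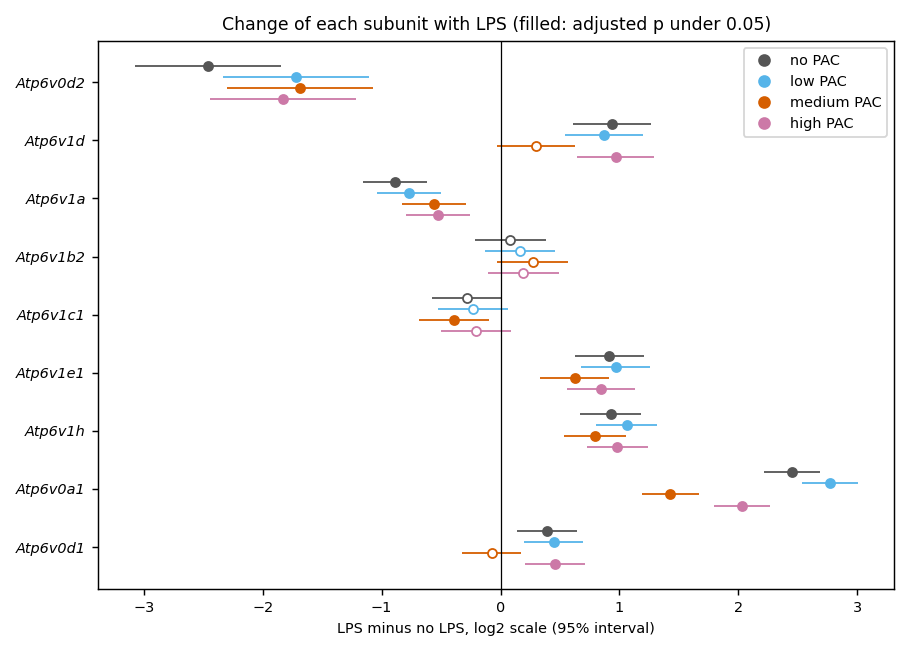
Difference between cells with and without LPS for each subunit (horizontal axis, log2 scale, 95% interval), without PAC and within each PAC fraction, filled where the adjusted p was under 0.05. Atp6v0d2 and Atp6v1a lie left of 0 in all 4 states, and Atp6v0a1 lies right of 0 in all 4, from 1.43 with medium PAC to 2.77 with low PAC.

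Within the PAC groups, LPS raised 5 subunits and lowered 2 with low PAC (34.8% of all features called in either direction) and with high PAC (33.6%). With medium PAC, LPS raised 3 subunits and lowered 3 (28% of all features called). Among features above the silent level, where all 9 lay, LPS raised 21.1% with low PAC, 19.9% with high PAC and 17.2% with medium PAC. It lowered 35.8% with low PAC, 34.3% with high PAC and 29.3% with medium PAC. The count of lowered subunits was near or below that share in each of the 3 fractions. With medium PAC, Atp6v1h, Atp6v1e1 and Atp6v0a1 rose, and Atp6v0d2 and Atp6v1a fell. Atp6v1c1 also fell there, by 0.39 (adjusted p = 0.043), a call lost in 10 of 24 fits without 1 array. Whether the PAC effect depended on LPS was tested as an interaction, the PAC difference with LPS minus the PAC difference at rest. Atp6v0a1 passed for medium PAC, where 3.25% of all features had a lower interaction, with -1.02 ± 0.16 (SE, adjusted p = 0.00026). Its rise with medium PAC was 1.80 at rest and 0.78 with LPS. The medium PAC + LPS arrays read 14.42, 14.35 and 14.37 and the LPS arrays 13.65, 13.58 and 13.59. The 2 rises started from different levels, 11.15 in control and 13.60 with LPS, on a scale that may be stretched. Whether the interaction depends on that scale was not tested. No other subunit passed in any of the 3 interactions in limma, where 0% of all features were called for low PAC and 1.91% for high PAC. At an unadjusted p under 0.05 the count was 0 for low PAC, 3 for medium PAC (Atp6v1d, Atp6v0a1 and Atp6v0d1) and 1 for high PAC (Atp6v0a1). These unadjusted counts have no share of all features beside them, since it was not counted. For Atp6v0d2 the interaction with medium PAC was 0.78 (adjusted p = 0.37) and with high PAC 0.63 (adjusted p = 0.63). Without LPS replicate 2 they were 1.28 (adjusted p = 0.0075) and 1.14 (adjusted p = 0.048), so 1 array decided these calls.

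The order of the 8 groups differed by subunit. For Atp6v0d2 the means ran from medium PAC (13.63) over medium PAC + LPS (11.95), high PAC (11.65), high PAC + LPS (9.82), low PAC (9.79), control (9.05) and low PAC + LPS (8.07) to LPS (6.59). Arrays of neighbours in this order overlapped between medium PAC + LPS and high PAC, between high PAC + LPS and low PAC, and between low PAC + LPS and LPS. Atp6v1a and Atp6v1c1 also had medium PAC at the top and LPS at the bottom, with spans of 2.47 and 2.42. Atp6v0d1 had medium PAC (14.25) and medium PAC + LPS (14.18) at the top with overlapping arrays and control (12.74) at the bottom. Atp6v1d, Atp6v1b2, Atp6v1h and Atp6v0a1 had medium PAC + LPS at the top and control at the bottom. In Atp6v0a1 all 4 groups with LPS, from 13.60 to 14.38, stood above medium PAC at 12.95. In Atp6v1e1 the 4 groups with LPS overlapped as neighbours between 13.11 and 13.30 and stood above the 4 resting groups.

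Beyond the listed genes, 15 of 16 other V-ATPase subunits were measured, 11 of them above the silent level. With medium PAC 3 of the 15 were higher than control (5.03% of all features) and none lower (6.28%), with a median difference of 0.31, and the count was 5 with the variance trend and robust prior. Tcirg1, the a3 isoform of the V0 a subunit known from lysosomes and osteoclasts, read 14.14, 14.16 and 14.18 in control arrays and 16.04, 15.73 and 15.86 with medium PAC, a rise of 1.72 ± 0.12 (SE, adjusted p = 1.4e-09). Atp6v1g1, of the peripheral stalk, rose by 1.09 ± 0.17 (adjusted p = 9.8e-05) and Atp6v1f, of the rotor, by 0.53 ± 0.13 (adjusted p = 0.0085). The a2 isoform Atp6v0a2 gave -0.23 and did not pass. With medium PAC + LPS 8 of the 15 passed the test as higher than LPS (7.17% of all features) and none as lower (7.47%), but Atp6v1b1 lay below the silent level in both groups, which leaves 7. To the 3 above these added Atp6ap1 (0.80) and Atp6ap2 (0.93), accessory proteins of the pump, Atp6v0e (0.45) and Atp6v0e2 (0.64). With Atp6v1b1 counted, the 8 became 4 with only the compared groups fitted and 5 without LPS replicate 3. Counted together, 11 of 24 measured subunits were higher with medium PAC and 9 with high PAC (3.21% of all features). With the call of Atp6v1b1 not counted, 15 of the 24 were higher with medium PAC + LPS, and 11 with high PAC + LPS (4.34%). None was lower in any of these. Both group means lay at or below the silent level in 4 of the 24, and in 5 for medium PAC + LPS.

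**Figure D4:**
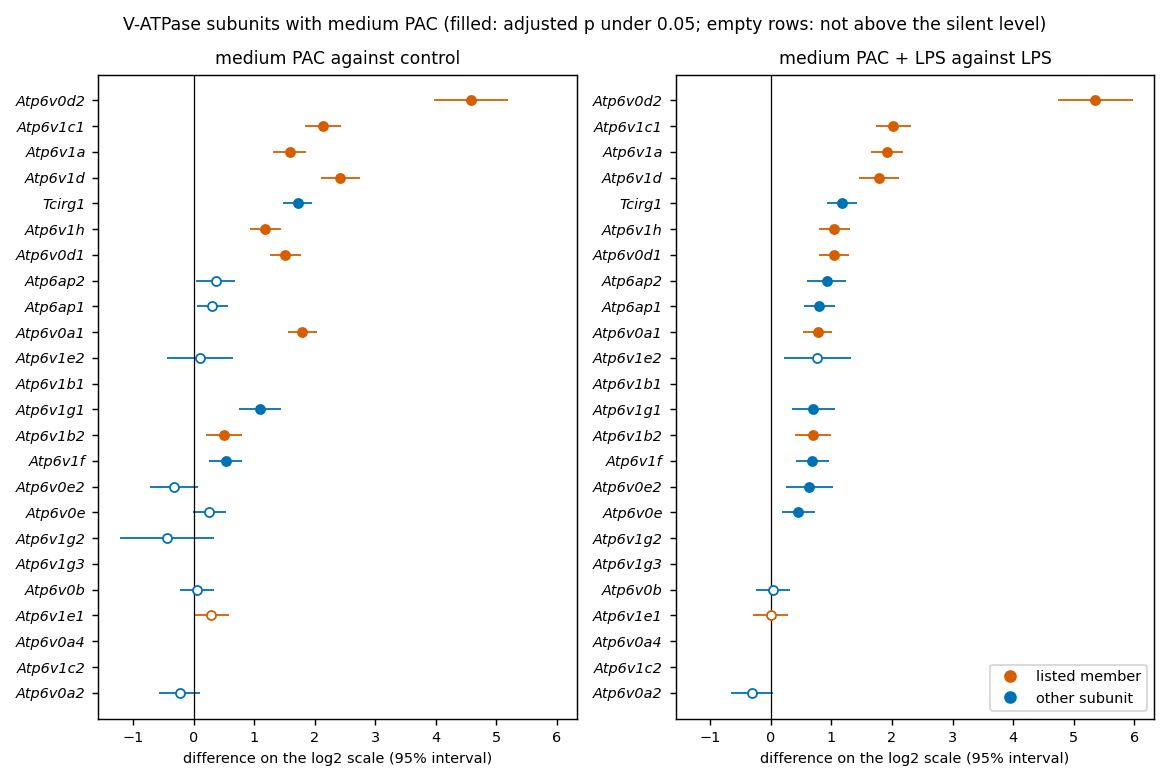
Difference with medium PAC against control (left) and with medium PAC + LPS against LPS (right) for the measured V-ATPase subunits, on the log2 scale with 95% intervals, filled where the adjusted p was under 0.05. Rows follow the order in cells with LPS, and a row is empty where both group means lay at or below the silent level. Filled points number 11 at left and 15 at right, all right of 0, with Atp6v0d2 at 4.58 and 5.36.

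Of 12 measured genes that assemble or regulate the pump, medium PAC raised 3 and lowered 1 at rest, where 5.03% of all features were higher and 6.28% lower. With LPS it also raised 3 and lowered 1, where 7.17% were higher and 7.47% lower. Of the 12, 11 lay above the silent level, where 10.8% of features were lower at rest and 12.5% with LPS. The counts of 1 lowered did not exceed that background. Wdr7, which works with Dmxl1 and Rogdi in a complex that joins V1 to V0, read 10.34, 9.77 and 9.93 in control arrays and 12.28, 12.17 and 12.28 with medium PAC. It rose by 2.23 ± 0.23 (SE, adjusted p = 6.2e-07) at rest and by 1.96 ± 0.23 (adjusted p = 2.3e-06) with LPS. Rogdi fell by 0.76 at rest (adjusted p = 0.011) and was higher by 0.80 with LPS (adjusted p = 0.0058), with an interaction of 1.56 (adjusted p = 0.00078). Tmem199, an assembly factor of the endoplasmic reticulum, was higher by 1.23 with LPS (adjusted p = 1.6e-06) and gave 0.28 at rest. Vma21 (0.55) and Dmxl1 (0.65) were higher at rest, and Ncoa7, a pump-binding protein, fell by 0.69 with LPS.

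Of 16 measured genes of lysosomal ion transport and of the Ragulator anchor of mTORC1, medium PAC raised 6 and lowered 1 at rest. There 5.03% of all features were higher and 6.28% lower. With LPS it raised 7, against 7.17% higher. All 16 lay above the silent level, where 8.36% of features were higher and 10.8% lower at rest, and 11.9% higher with LPS. The count of 1 lowered did not exceed that background. Clcn7, the lysosomal chloride-proton exchanger, read 10.78, 10.75 and 10.32 in control arrays and 12.54, 12.33 and 12.50 with medium PAC. It rose by 1.84 ± 0.15 (SE, adjusted p = 2.5e-08) at rest and by 2.07 ± 0.15 (adjusted p = 2.8e-09) with LPS. Tpcn2, an endolysosomal cation channel, rose by 1.31 and 2.36, and the calcium channel gene Mcoln1 by 0.92 and 1.02. Lamtor3 of the Ragulator rose by 1.09 and 0.93, whereas Lamtor2 fell by 0.64 at rest and gave 0.14 with LPS. The exchangers Clcn5 (0.92) and Clcn6 (0.90) were higher at rest and Clcn6 (0.72) also with LPS, where Ostm1 (1.04), the partner of Clcn7, and Tmem175 (1.13) were higher too.

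The MiT/TFE factors were all measured above the silent level. Mitf read 13.01, 13.15 and 13.17 in control arrays and 11.95, 11.91 and 11.83 with medium PAC, and it fell by 1.21 ± 0.13 (SE, adjusted p = 9.3e-07) at rest and by 1.69 ± 0.13 (adjusted p = 5.2e-09) with LPS. Tfec rose by 1.09 ± 0.19 (adjusted p = 0.00044) at rest and gave -0.49 with LPS. Tfeb gave 0.32 and 0.62, neither of which passed, and Tfe3 gave -0.24 at rest and fell by 0.60 (adjusted p = 0.0025) with LPS. None of these 4 transcripts passed the test as higher with medium PAC in both states. The arrays measured RNA and not the activity of these factors, whose part in the subunit results was not tested.

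Because Atp6v0d2 is also an osteoclast gene and RAW 264.7 cells can form osteoclasts, the 10 osteoclast markers were read beside it. Between 5 and 8 of the 10 lay above the silent level in each group, and Calcr and Oscar lay at or below it in all 8 groups. Their mean level per array was 7.13 to 7.37 in control and 6.83 to 7.13 with medium PAC. Acp5, Ctsk and Dcstamp were higher with medium PAC and Nfatc1, Ocstamp and Tnfrsf11a lower, and with high PAC the first 3 were also higher and Nfatc1 and Tnfrsf11a lower. In cells with LPS their mean per array was 8.07 to 8.15 with LPS alone and 7.99 to 8.17 with medium PAC + LPS. There Acp5, Ctsk, Dcstamp and Ocstamp were higher and Mmp9 and Nfatc1 lower, with medium PAC + LPS and with high PAC + LPS alike, so Ocstamp was lower with medium PAC at rest and higher with LPS. The mean of the 11 macrophage markers per array was 14.19 to 14.31 in control and 13.82 to 13.94 with medium PAC, where Lgals3 was higher and Adgre1, Csf1r, Fcgr1, Itgam and Lyz2 were lower. With LPS it was 14.51 to 14.65, and with medium PAC + LPS 14.32 to 14.36, where Cd63 and Lgals3 were higher and Cd14, Fcgr1, Itgam and Ptprc lower. The part of these markers in the subunit results was not tested.

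The genes whose pattern over the 8 group means was nearest to that of Atp6v0d2 were Bhlhe41, at a root mean square difference of 0.45, and Nceh1, at 0.56, among 11299 named features above the silent level. The group means of Atp6v0d2 itself had an SD of 2.12. Next came Fam20c, Amz1, Slc6a8, Gask1b, Gnpda1, Wdr91, Plekho1 and Tbc1d2, up to 0.88. Nearest to Atp6v1d were Renbp (0.15), Pcyt1a (0.22), Layn (0.24) and Clcn7 (0.24), beside an SD of 0.94 for Atp6v1d, and then Tmem120a, Gas2l3, Plin2, Rragc, Slc38a7 and Ctsk, up to 0.31. Patterns were centred on their own mean over the groups, and all points come from the same 24 arrays.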

How the data were processed

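Total RNA of 24 RAW 264.7 samples was labelled with a whole-transcript kit, hybridised to a plate of 24 Clariom S arrays and processed in the Transcriptome Analysis Console software, per the study's methods. The authors deposited 1 table of normalized log2 values for 28846 features. The sources used here do not say how features were summarised and background-corrected. The log2 values ran from 0.95 to 19.26, with 8242 above 16. Such values leave the range of 16-bit intensities. The scale had therefore been changed in a way that is not stated, and it may be stretched. Depth does not apply to arrays, and their number limits the precision.

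Control features (6640) were left out and 22206 gene features kept, 88.1% of them with 1 gene name from the platform annotation updated through RefSeq. Groups came from the titles and treatment labels. In R 4.3.3, limma 3.58.1 fitted 1 mean per group to all 24 arrays with 16 residual degrees of freedom, and 19 comparisons were tested, two-sided, with Benjamini-Hochberg adjustment within each and a threshold of 0.05. The script was tested on simulated data. Every listed subunit was named, and another subunit, regulator or lysosomal gene where it passed in either medium PAC comparison, with a few beside it for comparison. Members and lists were chosen with earlier results of these data known. Motifs were searched and figures drawn with Python 3.11.15. The alternatives were only the compared groups, a variance trend with robust prior, array weights, quantile normalization, median centring, a silent-level filter, a replicate block, adjustment over all comparisons, leaving out the 3 arrays with high Il1b, and leaving out each array. Their use for the counts of other subunits was chosen after seeing the data.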

Additional observations from a re-analysis of the deposited data

Results flagged for a closer look

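On the log2 scale of the deposited values, the effect of medium PAC on Atp6v0a1 differed between resting cells and cells with LPS. This was a test of the difference itself. LPS alone moved the Atp6v0a1 mean from 11.15 to 13.60, so the 2 effects were read at different parts of a scale that may be stretched. Whether the difference would hold on another scale was not tested. The interaction was -1.02 on the log2 scale (limma, adjusted p = 0.00026), and it ran from -1.12 to -0.97 over the alternatives, all of them past the threshold.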

How the results depend on the processing

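Of the 102 calls among 171 subunit comparisons, 67 stayed past the threshold under all 33 alternatives. The share of all features called under each alternative is not given here. Of the other 35, 22 were lost only with the compared groups fitted alone or without the 3 arrays with high Il1b, and 13 were lost when some single array was left out. With only the compared groups fitted, which leaves fewer arrays to estimate the spread, the subunits called fell from 8 to 5 for high PAC against control and for high PAC + LPS against LPS, from 7 to 2 for medium PAC against high PAC, from 7 to 3 for high PAC against low PAC, from 5 to 1 for medium PAC + LPS against high PAC + LPS, from 6 to 2 for high PAC + LPS against low PAC + LPS and from 1 to 0 for low PAC + LPS against LPS. The last count was also 0 with array weights, quantile normalization, median centring, the replicate block and without the 3 arrays with high Il1b, and 0 to 1 when 1 array was left out. With only the compared groups, medium PAC + LPS against low PAC + LPS also fell from 8 to 6. High PAC + LPS against high PAC fell from 7 to 5. Some smaller falls under that setting are not listed. Medium PAC + LPS against high PAC + LPS gave 3 with array weights, quantile normalization, the replicate block and without the 3 arrays, and 3 to 5 without 1 array. Medium PAC against high PAC gave 2 without the 3 arrays. Among the 15 other subunits, the count for high PAC + LPS against LPS fell from 3 to 1 with only the compared groups, that for medium PAC + LPS against LPS from 8 to 4 (5 to 9 without 1 array), while that for medium PAC against control rose from 3 to 5 with the variance trend and robust prior. The interaction of medium PAC with LPS gave 2 with the variance trend and robust prior and with quantile normalization, 3 with the silent-level filter and 1 to 2 without 1 array, and that of high PAC gave 0 to 1. Among near-zero differences that never passed, the sign turned for the interaction of high PAC in Atp6v1d (quantile normalization -0.081, median centring -0.022, without the 3 arrays -0.023), Atp6v1h (quantile normalization -0.0044, without the 3 arrays -0.12), Atp6v0d1 (quantile normalization -0.0098) and Atp6v1e1 (without the 3 arrays 0.10), and for Atp6v1e1 in medium PAC + LPS against LPS (median centring 0.0096) and in high PAC against low PAC (without the 3 arrays -0.16), and for Atp6v1h with low PAC (median centring -0.012).

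With 1 array left out, further differences that never passed crossed 0. They were LPS against control in Atp6v1b2 (-0.0054 to 0.20), low PAC against control in Atp6v1b2 (-0.094 to 0.17), Atp6v1h (-0.065 to 0.094) and Atp6v0a1 (-0.022 to 0.071), medium PAC against high PAC in Atp6v1b2 (-0.019 to 0.055), high PAC against low PAC in Atp6v1e1 (-0.097 to 0.10) and medium PAC + LPS against LPS in Atp6v1e1 (-0.015 to 0.027). The interaction of low PAC did so in Atp6v1d (-0.17 to 0.059), Atp6v1b2 (-0.041 to 0.22), Atp6v1c1 (-0.043 to 0.16), Atp6v1e1 (-0.022 to 0.15) and Atp6v0d1 (-0.059 to 0.15), and that of high PAC in Atp6v1d (-0.14 to 0.16), Atp6v1b2 (-0.011 to 0.20), Atp6v1c1 (-0.026 to 0.17), Atp6v1e1 (-0.20 to 0.039), Atp6v1h (-0.019 to 0.15) and Atp6v0d1 (-0.048 to 0.16).

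The samples share only a number. Of 84 pairs of arrays with the same replicate number, 2 had deviations from the group means that correlated above 0.1 (range -0.09 to 0.13). Besides the counts above, the replicate block moved high PAC + LPS against low PAC + LPS from 6 to 7 and medium PAC + LPS against medium PAC from 6 to 5, and left the other subunit counts as they were. The cause of these changes was not tested.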
